A study of Mus musculus with 8 samples.

Results

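The genes described here encode the factors that start and carry forward protein synthesis in the cytosol, with the enzymes and binding proteins that modify or restrain them. They were chosen by name, as the protein-coding genes of the mouse annotation (GRCm38, Ensembl release 96) whose symbol begins with Eif or Eef and a digit, leaving out *Eef1e1*, which encodes a protein of the aminoacyl-tRNA synthetase complex. This gave 67 of the 55536 genes in the count tables, among them the kinases of eIF2 and the binding proteins of eIF4E. Of the 67, 63 passed the filter of more than 3 CPM, counts scaled to a common library size, in at least 4 of the 8 libraries and were tested. The other 4 were *Eef1a2*, with at most 1 count in any library, *Eif4e1b*, with no count in any library, *Eef1akmt3*, with 2 to 8 counts, and *Eif4ebp3*, with 8 to 26 counts.

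The RNA came from OT-1 CD8+ T cells of C57BL/6 mice, whose transgenic T cell receptor recognises the ovalbumin peptide SIINFEKL and which lack *Rag1*, so that no other T cells mature. Lymph node cells of mice several weeks of age, with donor sex randomised by the study, were activated with 100 nM peptide for 2 days and then grown in 20 ng/mL IL-2 for 2 days, either with 10 µM GC7 or with its acetic acid vehicle (Mock). Both groups were therefore activated T cells, and neither is a naïve state. There were 4 libraries per group, called biological replicates by the study, with 17528776 to 25284730 counts each. The messenger RNA of *Cd3e*, *Cd8a* and the other 6 genes of the CD8+ T cell list was present in all libraries, and they summed to 8473 to 9642 CPM in Mock but 5564 to 7608 CPM under GC7. These genes did not move together. *Gzmb*, the largest part of the sum, fell from 3968 to 4817 CPM in Mock to 1901 to 3440 CPM under GC7. *Cd8a* rose from 680 to 743 CPM in Mock to 940 to 1003 CPM under GC7. At an FDR under 0.01 in edgeR, *Cd3e*, *Thy1* and *Prf1* were also lower, while *Cd3d*, *Cd8b1* and *Il2ra* did not pass. Genes that mark CD4+ T cells, B cells, myeloid cells, NK cells and red cells summed to less than 1.3 CPM for each list in every library, so the defining markers of other blood cells were at or near 0. In the stromal and endothelial list *Pecam1*, which T cells also express, carried nearly all of the 51.5 to 56.2 CPM in Mock and the 30.3 to 32.3 CPM in GC7 libraries, while *Col1a1* stayed below 1 CPM. In bulk RNA a gene with less RNA per cell cannot be told apart from fewer cells with that RNA. Mock replicate 2 and GC7 replicate 3 stood apart from the rest of their groups, with correlations of log2 CPM to the other 3 libraries between 0.987 and 0.993, against at least 0.995 among the others, and calls that change without both of them are counted or given beside the genes concerned.

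Translation begins when the small ribosomal subunit, loaded with eIF1, eIF1A, eIF3, eIF5 and the initiator tRNA carried by eIF2, is recruited to the capped mRNA by the eIF4 factors and scans to a start codon. Elongation then cycles through eEF1, which delivers aminoacyl-tRNA, and eEF2, which moves the ribosome along. eIF5A, named as an initiation factor, acts at the ribosome on peptide bonds that form slowly, and it is the protein known to carry hypusine, a modified lysine made from spermidine by DHPS and DOHH. GC7, a spermidine analogue, inhibits DHPS. It acts on the modification of the eIF5A protein, and the RNA counts carry no information on hypusine itself. The study also reports effects of GC7 that do not depend on eIF5A, and these counts cannot tell them apart. The comparison of GC7 with Mock therefore asks how the transcripts of the translation factors, including *Eif5a*, stood after 2 days under the inhibitor.

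The promoters of 5 members, picked after their values were seen, are shown because they carry the E box CACGTG, the sequence bound by Myc and its relatives, and because these genes went in different directions. *Eif5a* did not pass the threshold, *Eef2* and *Eif3f* were higher and *Eef2k* and *Eif1b* were lower in GC7-treated cells. Each line runs 5′ to 3′ from 100 bases before the RefSeq start site to 30 after it in GRCm38.p6. Capitals mark CACGTG, which reads the same on both strands, and, in *Eif3f*, the sense-strand pyrimidine motif CTTTC within 15 bases of the start, as in mRNAs with a terminal oligopyrimidine tract.
*Eif5a*, chr11:69921357-69921486, minus strand: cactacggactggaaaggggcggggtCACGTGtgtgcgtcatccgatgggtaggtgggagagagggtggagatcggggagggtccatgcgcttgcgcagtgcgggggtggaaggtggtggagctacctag
*Eef2*, chr10:81176531-81176660, plus strand: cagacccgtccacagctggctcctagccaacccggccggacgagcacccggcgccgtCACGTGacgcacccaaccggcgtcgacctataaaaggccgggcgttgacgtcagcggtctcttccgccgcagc
*Eif3f*, chr7:108934315-108934444, plus strand: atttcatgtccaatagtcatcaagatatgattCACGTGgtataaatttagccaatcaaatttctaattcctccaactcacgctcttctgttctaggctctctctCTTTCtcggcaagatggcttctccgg
*Eef2k*, chr7:120842731-120842860, plus strand: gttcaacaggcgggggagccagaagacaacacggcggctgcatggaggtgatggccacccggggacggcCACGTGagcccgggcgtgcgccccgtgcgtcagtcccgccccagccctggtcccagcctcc
*Eif1b*, chr9:120492506-120492635, plus strand: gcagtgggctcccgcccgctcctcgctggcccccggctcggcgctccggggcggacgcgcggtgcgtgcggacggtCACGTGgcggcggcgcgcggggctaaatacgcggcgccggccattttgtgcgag
Of the 51 members matched in the RefSeq promoter table, 13 (25.5%) held CACGTG between 250 bases before and 50 after the start, against 12.2% of the 8331 matched genes that were tested and 8.09% of all 27025 promoters. The 13 comprised 3 of 17 members that were higher (17.6%), 2 of 4 that were lower (50%) and 8 of 29 that did not pass the threshold (27.6%). CTTTC within 15 bases of the start was found in 5 members (9.80%), against 5.13% of tested genes. TGATGNAA on either strand, the core of the element bound by ATF4 complexes, was found in *Eef2k* and *Eif2s3x*, or 3.92% of members against 2.72% of tested genes. These matches describe the letters of the windows. The RefSeq start of *Eif1b* lay 115 bases from the start of its principal transcript in the gene annotation used for the counts, and those of the other 4 lay within 2 bases.

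*Eif5a* (chr11:69916714-69921958) was among the most abundant members in both groups, and its RNA level did not differ by more than the spread between replicates. It measured 1199.9, 1370.2, 1132 and 1181 CPM in the 4 Mock libraries and 1192, 1213, 964 and 1209 CPM in the 4 GC7 libraries. The groups overlapped, the highest value belonging to Mock replicate 2 and the lowest to GC7 replicate 3. The log2 fold change was -0.09 ± 0.09 (SE, n = 4 per group; edgeR quasi-likelihood F test, FDR = 0.395). Without these 2 libraries it was 0.04 (edgeR, FDR = 0.331), and with library totals in place of TMM scaling it was 0.0029 (edgeR, FDR = 0.979), so no direction can be read. Its paralogue *Eif5a2* (chr3:28781276-28798846), also a substrate of DHPS, was expressed at 14.9, 9.69, 12.4 and 13.7 CPM in Mock and 13.4, 13.4, 16.2 and 14.0 CPM in GC7 libraries, with overlapping groups (log2 fold change 0.17 ± 0.13, edgeR, FDR = 0.266). Neither gene of this pair passed an unadjusted p of 0.05 in edgeR, and DESeq2 and limma-voom called neither. Per kilobase of merged exons, *Eif5a* stood 3rd of the 67 members in Mock, behind *Eef1a1* and *Eef2*, and 4th in GC7-treated cells, where *Eef1g* had passed it, and both ranks were the same per kilobase of the principal transcript.

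**Figure D1:**
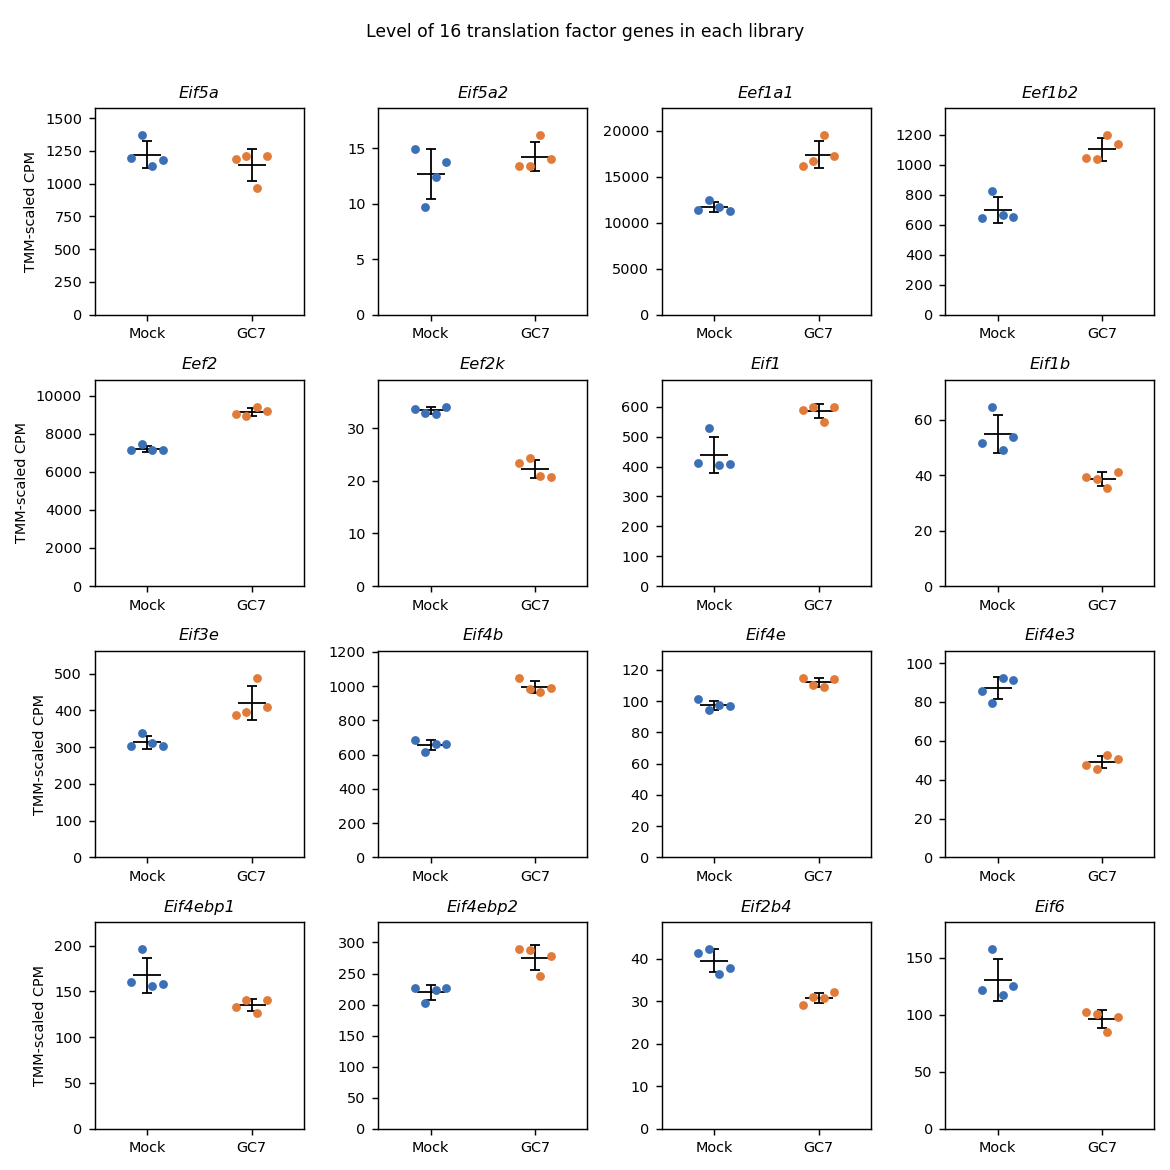
TMM-scaled CPM (y axis, linear, from 0) of 16 translation factor genes in each library, with Mock in blue and GC7 in orange. Points are libraries in the order of their replicate numbers, and bars show the mean ± SD of 4. *Eif5a* overlaps between the groups at 964 to 1370.2 CPM, while *Eef1a1*, *Eif4b* and *Eif4e3* separate.

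The machinery that makes hypusine was itself expressed at low levels. *Dhps*, the target of GC7, measured 23.0 to 27.2 CPM in Mock and 18.9 to 21.5 CPM in GC7 libraries and was lower by 0.29 ± 0.08 on the log2 scale (edgeR, FDR = 0.00638). *Dohh*, the second enzyme, measured 12.7 to 18.7 CPM in Mock and 9.82 to 12.7 CPM in GC7 libraries, with a log2 difference of -0.40 that did not pass the threshold (edgeR, FDR = 0.0218). Neither gene was followed with single libraries left out or under other settings.

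Among the 63 tested members 21 were higher and 7 were lower with GC7 when the FDR was held under 0.01. Over all 11189 genes tested, 23.0% were higher and 23.5% were lower, and the members' shares were 33.3% and 11.1%. The same 23.0% and 23.5% apply beside each count by complex or list below, and none was tested against them. No member passed a 2-fold change in either direction by edgeR, DESeq2 or limma-voom, where 3.17% of all genes were higher and 5.31% lower by more than 2-fold at the same FDR. The log2 fold changes of the members ran from -0.83 to 0.67 with a median of 0.12, against 0.02 for all tested genes. The groups did not overlap for 33 of the 63, a share close to the 55.6% over all tested genes. With Mock replicate 2 and GC7 replicate 3 left out together, a choice made after seeing the data, 29 members were higher and 9 lower, and these included all 28 of the calls above. Leaving out 1 library at a time gave 14 to 25 higher and 5 to 8 lower members.

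**Figure D2:**
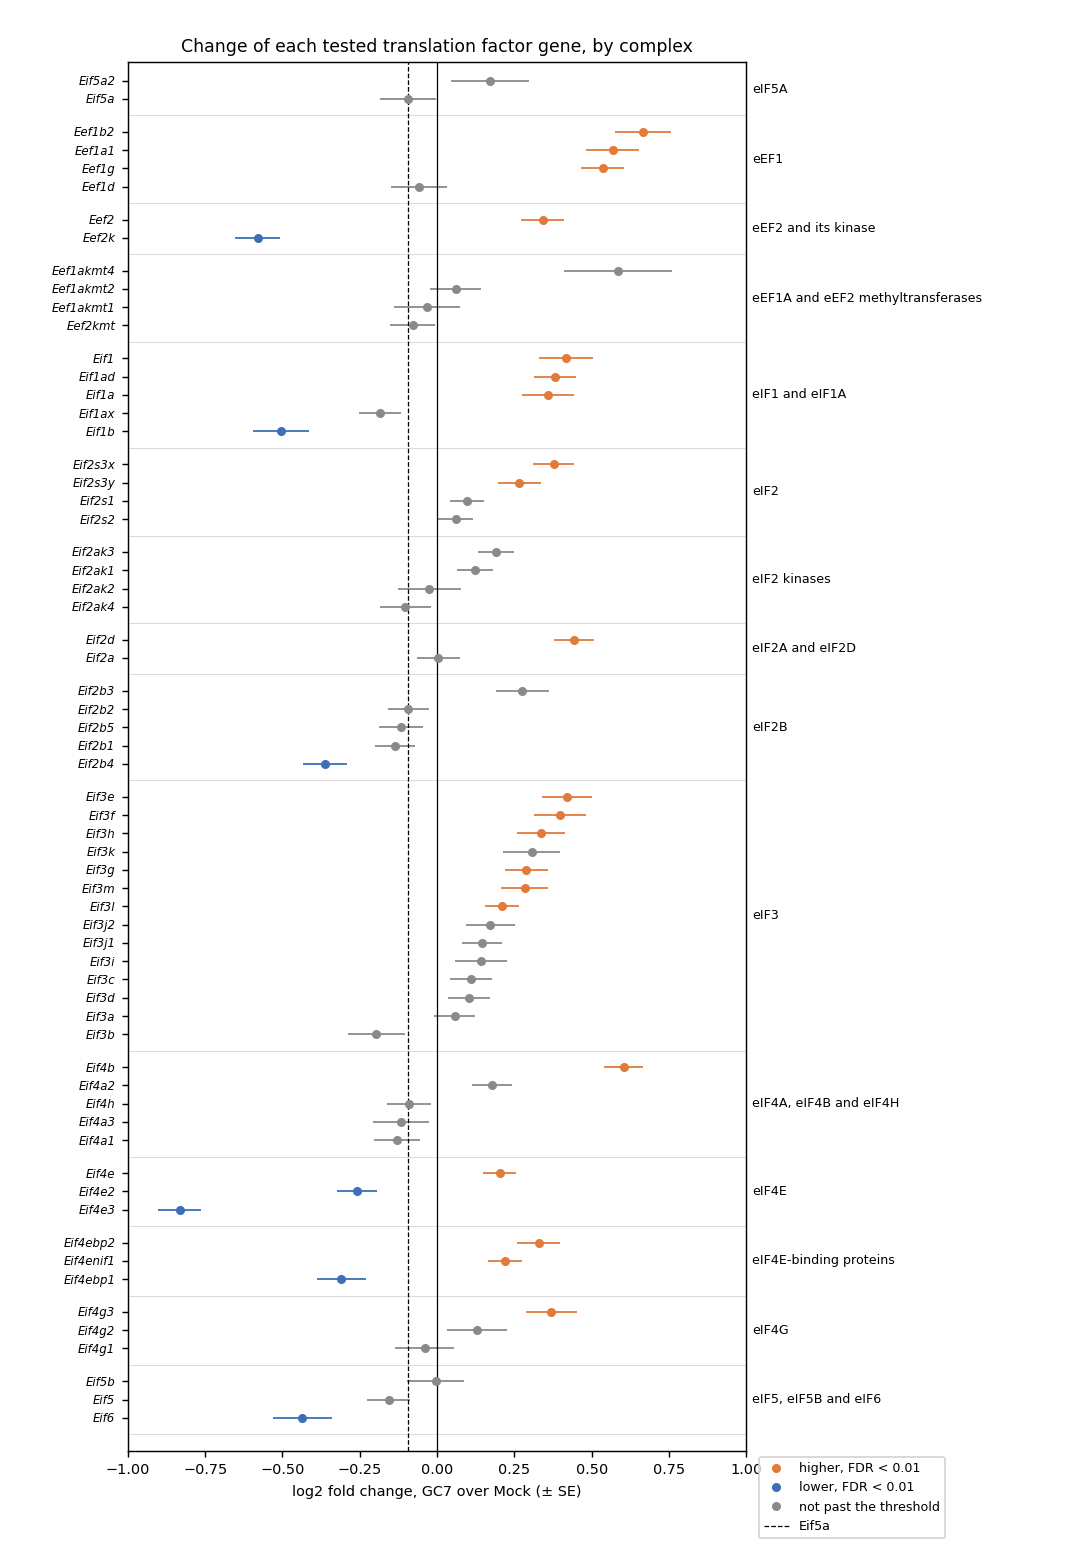
Log2 fold change of GC7 over Mock (x axis, ± SE, n = 4 libraries per group) for the 63 tested members, grouped by complex as named at the right. Orange marks the 21 higher and blue the 7 lower members at an FDR under 0.01, grey the rest, the solid line no change and the dashed line the value of *Eif5a*, -0.09.

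Elongation factors had the highest levels and some of the largest rises. All members together took 3.22% ± 0.04 of the counts of a Mock library and 4.42% ± 0.12 of those of a GC7 library (SD, n = 4 each), without overlap. *Eef1a1* alone, the carrier of aminoacyl-tRNA, rose from 1.13% ± 0.03 to 1.79% ± 0.14 of all counts and *Eef2*, the translocase, from 0.695% ± 0.003 to 0.940% ± 0.018. *Eif5a* held 0.117% ± 0.007 in Mock and 0.118% ± 0.013 in GC7 libraries.

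**Figure D3:**
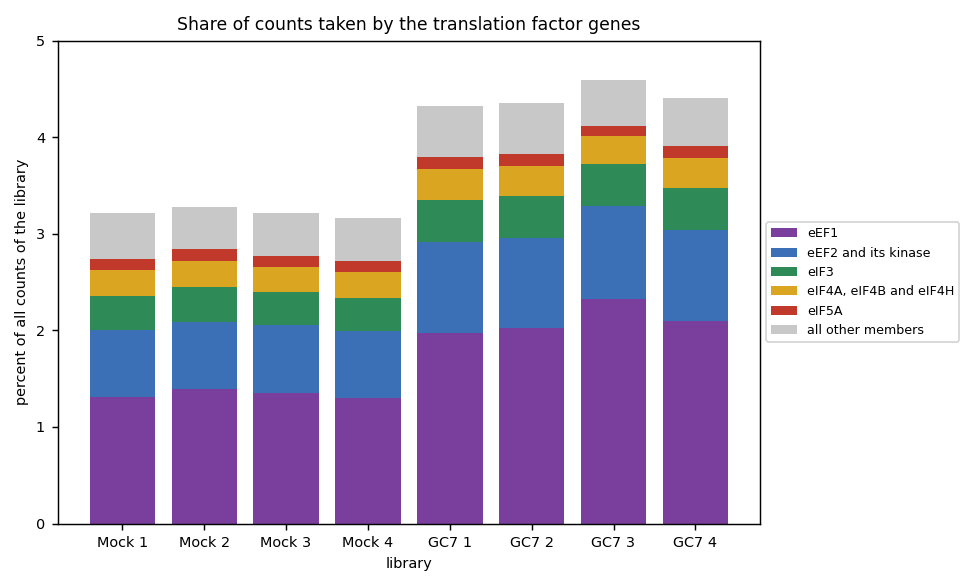
Percent of all counts of each library (y axis, linear, from 0) taken by the translation factor genes, stacked as eEF1, eEF2 and its kinase, eIF3, the group of eIF4A, eIF4B and eIF4H, eIF5A and all other members, for the 4 Mock and 4 GC7 libraries (x axis). Totals range from 3.17% to 3.28% for Mock and from 4.32% to 4.59% for GC7, and the eEF1 and eEF2 blocks make up most of each bar.

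In the eEF1 complex 3 of the 4 tested genes were higher and none was lower. *Eef1b2*, which encodes the nucleotide exchange factor eEF1Bα, had the largest rise of all members, from 647, 824, 663 and 649.6 CPM in Mock to 1046, 1036, 1197 and 1137 CPM in GC7 libraries (log2 fold change 0.67 ± 0.09, edgeR, FDR = 4.96e-05). Even the highest Mock value, of replicate 2, lay below all GC7 values. *Eef1a1* measured 11409.5, 12475, 11725 and 11322 CPM in Mock and 16108, 16656, 19505 and 17285 CPM in GC7 libraries, a rise of 48.2% (edgeR, FDR = 0.000126), again without overlap. *Eef1g*, the scaffold subunit eEF1Bγ, rose by 0.54 ± 0.07 on the log2 scale (edgeR, FDR = 4.03e-05). *Eef1d*, a further exchange factor of the same complex, did not follow, with 204 to 279 CPM in Mock and 212 to 226 CPM in GC7 libraries (log2 difference -0.06 ± 0.09, edgeR, FDR = 0.590). Without Mock replicate 2 that difference was 0.05, so its sign rests on this library. *Eef1a2*, the isoform of muscle and neurons, had 0 or 1 count per library. Copies of *Eef1a1* elsewhere in the genome held a further 4.04% of its counts and those of *Eef1g* 4.37%, and the 7 and 2 copies that were tested had log2 fold changes of 0.21 to 0.68 and 0.44 to 0.59.

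*Eef2* and its kinase went in opposite directions. *Eef2* measured 7135, 7465, 7159 and 7125 CPM in Mock and 9047, 8915, 9432 and 9207 CPM in GC7 libraries (log2 fold change 0.34 ± 0.07, edgeR, FDR = 0.00113). *Eef2k*, whose product phosphorylates and inhibits eEF2, measured 33.7, 33.0, 32.8 and 34.1 CPM in Mock and 23.3, 24.3, 20.9 and 20.8 CPM in GC7 libraries and fell by 0.58 ± 0.07 on the log2 scale (edgeR, FDR = 2.50e-05). Neither gene overlapped between the groups, and the Mock values of *Eef2k* spanned less than 2 CPM. Of the 5 lysine methyltransferases of eEF1A and eEF2, 4 were tested and none passed the threshold in edgeR, while 1 passed an unadjusted p of 0.05, and DESeq2 called 1 and limma-voom none. That gene, *Eef1akmt4*, measured 2.46 to 3.61 CPM in Mock and 3.96 to 5.81 CPM in GC7 libraries (log2 difference 0.59 ± 0.17, edgeR, FDR = 0.0115), and it entered the test through its GC7 values, since a single Mock library exceeded 3 CPM.

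Among the factors that act first in initiation, eIF1 and eIF1A guard the choice of start codon on the small subunit, and 3 of these 5 genes were higher and 1 was lower. *Eif1* measured 413, 527, 405 and 407 CPM in Mock and 589, 599, 550.0 and 601 CPM in GC7 libraries (log2 fold change 0.42 ± 0.09, edgeR, FDR = 0.00147). *Eif1b*, its close paralogue, fell by 0.50 ± 0.09 (edgeR, FDR = 0.000432), from 51.5, 64.7, 48.9 and 53.6 CPM in Mock to 39.3, 38.6, 35.2 and 41.1 CPM in GC7 libraries. The pair thus moved apart, and both genes had their top Mock value in replicate 2. *Eif1ad*, which encodes a protein related to eIF1A, rose by 0.38 ± 0.07 (edgeR, FDR = 0.000419), although its transcripts overlap those of the more abundant neighbour *Banf1* and some of its counts cannot be told apart from those of *Banf1*. *Eif1a* and its X-linked relative *Eif1ax* encode eIF1A. *Eif1a* measured 70.4, 61.9, 66.6 and 65.6 CPM in Mock and 90.2, 95.0, 72.3 and 81.7 CPM in GC7 libraries, a rise of 0.36 ± 0.08 on the log2 scale (edgeR, FDR = 0.00282), and *Eif1ax* measured 137, 153, 126 and 134 CPM in Mock and 123, 120.4, 115 and 125 CPM in GC7 libraries without passing the threshold (edgeR, FDR = 0.0319). The call of *Eif1a* was lost when GC7 replicate 1 or GC7 replicate 2 was left out (edgeR, highest FDR = 0.0114). Near-identical stretches in 23 genes elsewhere belonged to genes whose counts summed to 21.9% of those of *Eif1*.

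eIF2 carries the initiator tRNA, and its γ subunit is encoded by an X-linked and a Y-linked gene. Both γ subunit genes were higher, while *Eif2s1* and *Eif2s2*, which encode the α and β subunits, did not pass the threshold. *Eif2s3x* measured 281, 233, 251 and 256 CPM in Mock and 343, 335, 326 and 324 CPM in GC7 libraries (log2 fold change 0.38 ± 0.07, edgeR, FDR = 0.000374), and 2 copies elsewhere that share its sequence held a further 9.14% of its counts. *Eif2s3y* measured 86.2 to 97.1 CPM in Mock and 100.4 to 122 CPM in GC7 libraries (log2 fold change 0.27 ± 0.07, edgeR, FDR = 0.00546). A Y-linked gene also depends on the sex of the donors, and the summed level of *Xist*, *Ddx3y*, *Uty* and *Kdm5d* was 93.7 to 127.6 CPM in Mock and 132 to 149.7 CPM in GC7 libraries, with *Xist* below 0.3 CPM in all 8. *Ddx3y* alone measured 53.4 to 71.2 CPM in Mock and 74.1 to 85.1 CPM in GC7 libraries. The log2 differences were 0.30 for *Ddx3y*, 0.35 for *Uty* and 0.30 for *Kdm5d* (edgeR, FDR = 0.0131, 0.0316 and 0.0185). None of these 3 Y-linked genes passed the threshold, but the groups did not overlap for any of them. Whether donor sex had a part in the rise of *Eif2s3y* was not tested. The call of *Eif2s3y* was lost when Mock replicate 3, Mock replicate 4, GC7 replicate 1, GC7 replicate 2 or GC7 replicate 3 was left out (edgeR, highest FDR = 0.0228).

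The 4 eIF2 kinases, which phosphorylate the α subunit under haem deficiency, viral RNA, unfolded proteins or amino acid shortage, had log2 differences between -0.10 and 0.19, none past the threshold. *Eif2ak3* (PERK) had 64.5, 63.0, 68.0 and 60.3 CPM in Mock and 73.9, 72.4, 72.0 and 73.6 CPM in GC7 libraries (log2 difference 0.19 ± 0.06, edgeR, FDR = 0.0136), and it passed the threshold without Mock replicate 2 and by DESeq2. *Eif2ak1* (HRI) had 47.4, 43.6, 47.1 and 46.2 CPM in Mock and 50.9, 50.0, 48.8 and 50.7 CPM in GC7 libraries (edgeR, FDR = 0.0923). Both of these genes separated the groups by a small margin. *Eif2ak2* (PKR) had 31.0, 21.9, 28.6 and 27.7 CPM in Mock and 28.3, 25.1, 28.9 and 25.0 CPM in GC7 libraries (edgeR, FDR = 0.847), and *Eif2ak4* (GCN2) had 40.3, 32.6, 39.6 and 41.6 CPM in Mock and 36.8, 35.0, 37.3 and 34.5 CPM in GC7 libraries (edgeR, FDR = 0.299). Mock replicate 2 was the lowest library for both of these genes. Without it the log2 difference of *Eif2ak4* went from -0.10 to -0.17 (edgeR, FDR = 0.0194), and without GC7 replicate 3 too it was called lower, at -0.19 (edgeR, FDR = 0.00876). Among the kinases edgeR called none at an FDR under 0.01, 1 gene passed an unadjusted p of 0.05, DESeq2 called 1 and limma-voom none, and without both libraries edgeR called 2. The direction of *Eif2ak2* was not the same with library totals, as given under the processing alternatives.

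Several genes that act around eIF2 did pass the threshold. In the list of the eIF2 phosphatase and the integrated stress response, all 12 genes were tested, but *Chac1* passed the filter only through its GC7 libraries, with 2.00 to 2.98 CPM in Mock and 3.46 to 6.33 CPM under GC7, and is left out of the counts. Of the other 11, 4 were higher and 2 lower, beside 23.0% and 23.5% of all tested genes. *Sesn2* and *Atf3*, known targets of the stress response, were higher by more than 2-fold, *Sesn2* from 48.4 to 53.0 CPM in Mock to 128 to 134 CPM in GC7 libraries. *Asns* and *Impact*, an inhibitor of GCN2, also rose, by 0.55 each on the log2 scale (edgeR, FDR = 1.21e-05 and 2.32e-05). *Ppp1r15a* and *Ppp1ca*, the inducible regulator and the catalytic subunit of the phosphatase, fell by 0.47 and 0.53. *Atf4*, whose product drives this response and is mainly controlled in translation, had 369 to 434 CPM in Mock and 334 to 378 CPM in GC7 libraries (edgeR, FDR = 0.180), and *Ddit3*, which encodes CHOP, had 19.3 to 24.8 CPM in Mock and 21.7 to 26.1 CPM under GC7 (edgeR, FDR = 0.402). *Trib3* had 84.4 to 106 CPM in Mock and 67.9 to 109 CPM under GC7 (edgeR, FDR = 0.517). *Ppp1r15b* and *Gcn1l1* did not pass the threshold either.

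eIF2B recycles eIF2, and of its 5 subunit genes *Eif2b4* passed the threshold. It measured 41.4, 42.2, 36.5 and 37.9 CPM in Mock and 29.1, 30.9, 30.6 and 32.1 CPM in GC7 libraries and fell by 0.36 ± 0.07 on the log2 scale (edgeR, FDR = 0.000792), without overlap. Its transcripts overlap those of the neighbour *Snx17*, which had 208% of its counts. *Eif2b3* had a log2 difference of 0.28 in the opposite direction (edgeR, FDR = 0.0155), and it was called higher without GC7 replicate 3, at 0.34 (edgeR, FDR = 0.00258), and without both libraries that stood apart, at 0.37 (edgeR, FDR = 0.000323). *Eif2d*, which can place tRNA on the ribosome apart from eIF2 and takes part in recycling, rose from 73.7, 75.8, 73.7 and 68.8 CPM in Mock to 93.7, 94.5, 108 and 101 CPM in GC7 libraries (log2 fold change 0.44 ± 0.06, edgeR, FDR = 9.02e-05). In the termination and recycling list *Abce1*, which splits ribosomes after termination, rose by 0.67 and *Hbs1l*, a rescue factor, fell by 0.28, and the other 6 of 8 tested genes did not pass the threshold.

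eIF3, the largest initiation factor, holds the small subunit and the mRNA-bound factors together. Of its 14 genes 6 were higher, namely *Eif3e*, *Eif3f*, *Eif3h*, *Eif3g*, *Eif3m* and *Eif3l*, by 0.21 to 0.42 on the log2 scale, and none was lower. Of all tested genes 23.0% were higher and 23.5% lower. *Eif3e* had the largest rise, from 302, 339, 310.4 and 302 CPM in Mock to 386, 395, 488 and 408 CPM in GC7 libraries (log2 fold change 0.42 ± 0.08, edgeR, FDR = 0.000751). GC7 replicate 3 was its highest library, and without it the log2 fold change was 0.34 (edgeR, FDR = 0.000804). *Eif3b*, a scaffold of the complex, lay at the other end, with 275 to 313 CPM in Mock and 208 to 285 CPM in GC7 libraries (log2 difference -0.20 ± 0.09, edgeR, FDR = 0.0810). Split after the values were seen, 5 of the 8 subunits of the structural octamer (a, c, e, f, h, k, l and m) were higher and 1 of the 6 other genes, with median log2 fold changes of 0.29 and 0.14. *Eif3k* was the nearest miss, at 0.31 ± 0.09 (edgeR, FDR = 0.0123). Levels per kilobase of merged exons within eIF3 ran from *Eif3j2*, at 11.0 CPM per kb in Mock, to *Eif3h*, at 294 CPM per kb, and these stayed the lowest and the highest in GC7-treated cells. *Eif3j1* and *Eif3j2* are near-identical, so the division of counts between them is uncertain.

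Of these 6 calls, 4 depended on single libraries. *Eif3e* and *Eif3f* held under all alternatives. *Eif3h* was lost without Mock replicate 1, Mock replicate 4 or GC7 replicate 4 (edgeR, highest FDR = 0.0108), and *Eif3g* without Mock replicate 1, 3 or 4 or GC7 replicate 1, 2 or 4 (edgeR, highest FDR = 0.0149). *Eif3l* was lost under the same 6 omissions (edgeR, highest FDR = 0.0227) and *Eif3m* under these and without GC7 replicate 3 (edgeR, highest FDR = 0.0278). With Mock replicate 2 and GC7 replicate 3 left out together, 11 of the 14 genes passed the threshold.

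The eIF4 factors bind the cap and unwind the mRNA. *Eif4b*, which stimulates the helicase eIF4A, rose from 687, 617, 662 and 659.6 CPM in Mock to 1048, 982, 966 and 992 CPM in GC7 libraries (log2 fold change 0.60 ± 0.06, edgeR, FDR = 5.85e-06). The lowest GC7 value lay well above the highest Mock value. The other 4 genes of that group did not pass the threshold, among them the helicase *Eif4a1*, with 1074, 1169, 1018 and 1043 CPM in Mock and 1029, 1012, 882 and 1009.7 CPM in GC7 libraries (edgeR, FDR = 0.149). Its paralogue *Eif4a2* had 452, 438, 479 and 457 CPM in Mock and 500.1, 500.3, 564 and 502 CPM in GC7 libraries (edgeR, FDR = 0.0312). Of the scaffolds, *Eif4g3* rose from 149, 119.7, 143 and 148 CPM in Mock to 196, 187, 162 and 179.8 CPM in GC7 libraries (log2 fold change 0.37 ± 0.08, edgeR, FDR = 0.00215). *Eif4g1*, the main scaffold, had 459, 377, 413 and 444 CPM in Mock and 459.7, 449, 345 and 394 CPM in GC7 libraries (edgeR, FDR = 0.735), with overlapping groups.

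The cap-binding proteins diverged. *Eif4e*, the canonical cap-binding factor, was higher by 0.20 ± 0.05 on the log2 scale (edgeR, FDR = 0.00625), with 101, 94.2, 97.6 and 96.7 CPM in Mock and 115, 110.1, 109 and 114 CPM in GC7 libraries. *Eif4e3*, an atypical cap-binding relative, showed the largest fall of all members, from 85.5, 79.7, 92.3 and 91.3 CPM in Mock to 47.3, 45.7, 52.5 and 50.4 CPM in GC7 libraries, or by 0.83 ± 0.07 (edgeR, FDR = 9.11e-07). No Mock value of *Eif4e3* came near a GC7 value. *Eif4e2* (4EHP), which represses translation, fell from 98.0, 113, 97.8 and 97.8 CPM in Mock to 84.0, 85.7, 82.6 and 88.0 CPM in GC7 libraries (log2 fold change -0.26 ± 0.06, edgeR, FDR = 0.00435), with Mock replicate 2 highest. The call of *Eif4e* was lost without Mock replicate 1, 3 or 4 or GC7 replicate 1, 2 or 4 (edgeR, highest FDR = 0.0250), and that of *Eif4e2* without GC7 replicate 1 or 2 (edgeR, highest FDR = 0.0143).

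Proteins that hold eIF4E away from eIF4G also diverged. *Eif4ebp1* fell from 160.2, 196, 156 and 158 CPM in Mock to 133, 141, 127 and 140.1 CPM in GC7 libraries (log2 fold change -0.31 ± 0.08, edgeR, FDR = 0.00476), whereas *Eif4ebp2* rose from 226, 202, 223 and 227 CPM in Mock to 289, 288, 247 and 279 CPM in GC7 libraries (log2 fold change 0.33 ± 0.07, edgeR, FDR = 0.00135). The first had its top Mock value and the second its bottom Mock value in replicate 2. *Eif4ebp3* had 0.45 to 1.21 CPM in Mock and 0.45 to 0.92 CPM in GC7 libraries and was not tested. *Eif4enif1*, the transporter that takes eIF4E into the nucleus, was higher by 0.22 ± 0.05 (edgeR, FDR = 0.00437). The call of *Eif4ebp1* was lost without GC7 replicate 1, 3 or 4 (edgeR, highest FDR = 0.0147) and that of *Eif4enif1* without Mock replicate 1, 3 or 4 or GC7 replicate 1 or 2 (edgeR, highest FDR = 0.0204). Among 10 further regulators of the cap and the poly(A) tail, *Pabpc1* and *Pabpc4*, the poly(A)-binding proteins, rose by 0.47 and 0.72, and *Mknk1* and *Mknk2*, the kinases of eIF4E, fell by 0.24 and 0.33.

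At the joining of the subunits, *Eif6*, which keeps the large subunit apart from the small one, was the one gene of its group to pass the threshold. It measured 121, 157, 117 and 125 CPM in Mock and 102, 101, 84.5 and 97.5 CPM in GC7 libraries and fell by 0.44 ± 0.10 on the log2 scale (edgeR, FDR = 0.00191). *Eif5* and *Eif5b* did not pass the threshold, with a log2 difference of -0.16 for *Eif5* (edgeR, FDR = 0.0718). *Eif5* was called lower without Mock replicate 2, at -0.20 (edgeR, FDR = 0.00790), and with GC7 replicate 3 left out as well, at -0.17 (edgeR, FDR = 0.00357). The factors of the mitochondrial ribosome, a separate system, gave 1 lower gene of 10, *Mtrf1l*, and none higher, beside 23.5% and 23.0% of all tested genes.

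The balance within several pairs of related or functionally linked factors differed between the groups. Of 11 pairs with measurable members, 7 had ratios, taken per kilobase in each library, that did not overlap between the groups (two-sided exact permutation test, p = 0.0286, the smallest that the 70 splits of 4 against 4 libraries allow, and 0.0449 after Benjamini-Hochberg adjustment over the 11 pairs). Among all tested genes taken singly, 55.6% did not overlap, and no such share was taken over other gene pairs. The count of 7 is therefore not read as particular to these pairs. The pairs with *Eif4e2* and *Eif4e3* also share *Eif4e*. The ratio of *Eif4e3* to *Eif4e* was 2.14 ± 0.14 in Mock and 1.04 ± 0.08 in GC7 libraries (SD, n = 4), and that of *Eif1b* to *Eif1* was 0.233 ± 0.009 and 0.123 ± 0.004. These were 0.488 and 0.527 of the Mock ratios. *Eif4ebp1* over *Eif4ebp2* went from 2.02 ± 0.35 to 1.29 ± 0.06, and *Eif4e2* over *Eif4e* from 0.839 ± 0.086 to 0.609 ± 0.017. In the other direction, *Eif1a* over *Eif1ax* rose 1.45-fold, *Eif4g3* over *Eif4g1* 1.34-fold and *Eif4a2* over *Eif4a1* 1.24-fold. *Eif5a2* stayed a small part of the pair, at 0.00497 ± 0.00112 of *Eif5a* in Mock and 0.00599 ± 0.00130 in GC7 libraries (exact permutation test, p = 0.429). The ratios of *Eif2s3y* to *Eif2s3x*, *Eif3j2* to *Eif3j1* and *Eif2a* to *Eif2s1* also overlapped, and for the pair *Eef1a2* and *Eef1a1* the former was at most 1 count per library. All ratios used merged exon lengths, which set their level but not their fold between the groups. Per kilobase of the principal transcript, *Eif4e2* stood at 56.3 and *Eif4e* at 19.5 CPM per kb in Mock. In GC7 libraries they stood at 47.1 and 22.5 CPM per kb, so which gene was higher depends on the length used.

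**Figure D4:**
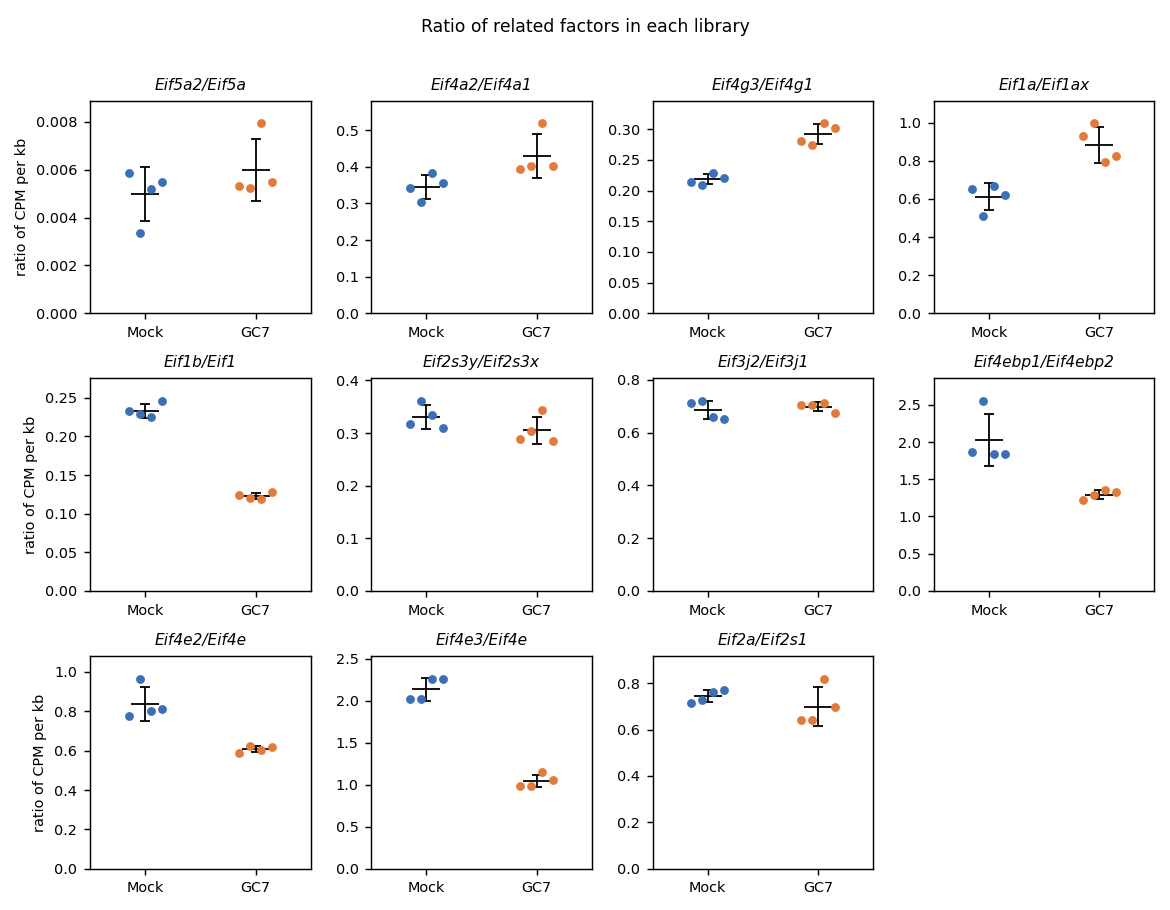
Ratio of the levels per kilobase of merged exons for 11 pairs of related factors (y axis, linear, from 0) in each library, Mock in blue and GC7 in orange, with the mean ± SD of 4. The ratio of *Eif4e3* to *Eif4e* falls from a mean of 2.14 to 1.04, and 4 of the 11 panels overlap between the groups.

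The change of each member was also measured against *Eif5a*, whose level served as the reference in each library. Of the 63 tested members, which include *Eif5a* itself, 17 lay above it and 4 below it at an FDR under 0.01. Among the 11188 genes other than *Eif5a*, 1938 (17.3%) lay above it and 1434 (12.8%) below it. Those above comprised *Eef1b2*, *Eef1a1*, *Eef1g*, *Eef2*, *Eif4b*, *Eif1*, *Eif1a*, *Eif1ad*, *Eif2d*, *Eif2s3x*, *Eif4g3*, *Eif4ebp2*, *Eef1akmt4* and the eIF3 genes e, f, g and h. Of these, *Eef1akmt4* had passed the filter through its GC7 libraries, as given above, and adds no support to the count. The largest difference was 0.78 ± 0.12 for *Eef1b2* (edgeR, FDR = 0.000166), followed by 0.70 ± 0.11 for *Eif4b* (edgeR, FDR = 0.000202). Those below were *Eif4e3* at -0.73, *Eef2k* at -0.49, *Eif1b* at -0.40 and *Eif6* at -0.34. The others, with the α and β subunits of eIF2 and all 4 kinases among them, did not differ from *Eif5a* past the threshold. The count moved with the libraries in the fit. It was 34 without Mock replicate 2 and GC7 replicate 3 together, 18 without Mock replicate 2 alone and 23 without GC7 replicate 3 alone, and it was 10, 13 and 8 without Mock replicate 1, 3 or 4 and 13 without GC7 replicate 1 and also without GC7 replicate 4. The members most like *Eif5a* over the 8 libraries were *Eif4a3*, *Eif4h*, *Eif4a1*, *Eif2b5* and *Eif3b*, with root mean square differences of 0.03, 0.04, 0.05, 0.06 and 0.08 in log2 CPM after each gene's own mean was taken off. Like *Eif5a*, each of them had its highest value in Mock replicate 2 and its lowest in GC7 replicate 3. The likeness was not measured without these libraries, which stood apart.

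**Figure D5:**
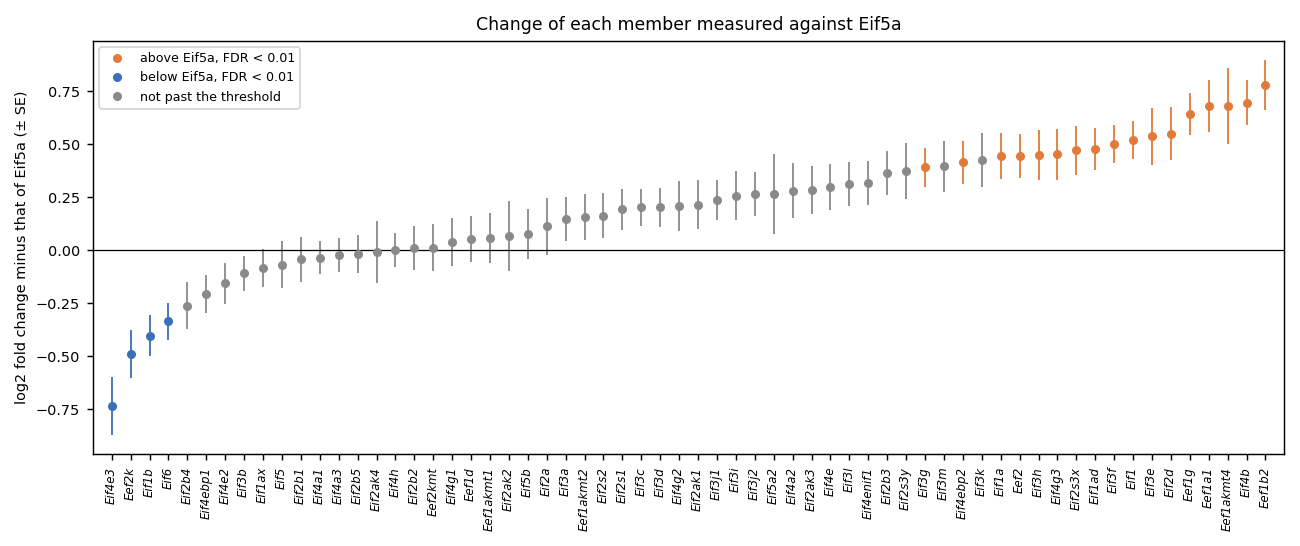
Log2 fold change of each member minus that of *Eif5a* (y axis, ± SE, n = 4 libraries per group), for the 62 other tested members in order of the difference (x axis). Orange marks the 17 members above and blue the 4 below *Eif5a* at an FDR under 0.01, with *Eef1b2* highest at 0.78 and *Eif4e3* lowest at -0.73.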

How the data were processed

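Bulk RNA-seq libraries of 4 Mock and 4 GC7-treated CD8+ T cell samples were compared. The authors trimmed reads with Cutadapt, aligned them to GRCm38 (mm10) with STAR and counted reads per gene with featureCounts, and the deposited values are raw counts. The strand setting and the treatment of multiply mapped reads are not given in the sources used here. Counts (17528776 to 25284730 per library, where 3 CPM is 52.6 to 75.9 counts) were tested in edgeR 4.0.16 (R 4.3.3) with TMM scaling, more than 3 CPM in at least 4 libraries, its quasi-likelihood F test and p-values adjusted by Benjamini and Hochberg's method across the 11189 genes, at an FDR under 0.01. SE is the log2 fold change divided by the root of F. For the comparison with *Eif5a*, its counts replaced the library sizes. DESeq2 1.42.0, limma-voom (limma 3.58.1), other scalings and filters, a replicate block and omission of single libraries were alternatives. Near-identical copies were found with BLAST 2.17.0 (at least 200 bases at 90% identity). On simulated data for GC7 against Mock with 11189 genes, 49 of 50 genes lowered by 1 and 28 of 50 lowered by 0.5 on the log2 scale were recovered. Values per library are given for *Eif5a* and *Eif5a2*, the eIF2 kinases, the 4E-binding proteins, the largest rise and fall in each complex and the pairs whose ratios separated. Other members were named once their values were known. The members and lists were chosen with earlier results of these data known. Nothing says which cultures or mice the libraries came from, so p-values measure the spread between these samples.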

Additional observations from a re-analysis of the deposited data

Results flagged for a closer look

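Among 126 groups of 4 libraries, 16 had a highest or lowest library whose gap to the nearest other, divided by the group's range, exceeded Dixon's critical value, and chance alone gives about 1 in 20. Mock replicate 2 was the library in 11 of these. It was the highest Mock value for *Eif4e2* (0.99), *Eif1* (0.938), *Eif3f* (0.915), *Eef1b2* (0.909), *Eif3h* (0.908), *Eif3k* (0.904), *Eif4ebp1* (0.901), *Eef2* (0.899), *Eif3i* (0.884) and *Eif4a3* (0.872), and the lowest for *Eif4ebp2* (0.84). GC7 replicate 3 was the library in 4, as the highest GC7 value for *Eif4a2* (0.972) and the lowest for *Eif5a* (0.918), *Eif4a1* (0.869) and *Eif4h* (0.853). GC7 replicate 4 was the highest GC7 value for *Eef1akmt4* (0.957). These genes are measured in the same libraries and are not independent of each other.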

How the results depend on the processing

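Of the 28 members that passed the threshold, 18 (13 higher, 5 lower) did so under all 16 alternatives and none changed sign. The others are named with their omissions in the results. *Eif4e2* and *Eif4ebp1* were also lost with library totals, *Eif3l* and *Eif4e* without a filter, with edgeR's own filter and with the replicate block, *Eif3m* with the block, and *Eif4enif1* without a filter and with the block. With the replicate number as a block, 17 members were higher and 7 lower and 25 differed from *Eif5a*. The deviations of same-numbered libraries correlated at 0.27, -0.12, 0.20 and -0.18. Correlations of both signs do not settle whether equal numbers mark the same mouse or day. With library totals the median log2 fold change of the members was 0.21, and *Eef1d* (0.0378), *Eif2ak2* (0.0662), *Eif4g1* (0.0522), *Eif4h* (0.0041) and *Eif5a* (0.0029) turned positive. Without Mock replicate 2 and GC7 replicate 3 together, 34 members differed from *Eif5a*, *Eef1d* (0.0410), *Eif4a3* (0.0377), *Eif4h* (0.0028) and *Eif5a* (0.0448) turned positive, and *Eif5a2* was at -0.000326. These members were past the threshold in no such case, and the cause was not tested. With single libraries left out, 8 to 23 members differed from *Eif5a*, and log2 fold changes ran from -0.109 to 0.0545 for *Eef1d*, from -0.116 to 0.0384 for *Eif2ak2* and from -0.101 to 0.0324 for *Eif4g1*. RLE factors and library totals were not run against *Eif5a*, whose counts replace them. The omission of both libraries and the use of principal transcript lengths were chosen after seeing the data. Genes outside the members, *Dhps* and the other listed genes among them, were not followed under any alternative.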
